A study of Mus musculus with 6 samples.

Results

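The mRNAs of 10 alpha and beta tubulin genes were followed in primary murine hepatocytes that overexpressed Aloxe3 or a control protein. The genes were the 4 alpha tubulin genes Tuba1a, Tuba1b, Tuba1c and Tuba4a and the 6 beta tubulin genes Tubb2a, Tubb2b, Tubb3, Tubb4b, Tubb5 and Tubb6. They were chosen from a table of 41388 Ensembl genes, after their difference between the 2 groups had been seen. The difference is therefore given below as a description, and the counts of members called by a fit stand beside the share of all genes called and support nothing. All 10 were in the table, and 9 of them passed the minimum mean level of 0.5 RPKM (reads per kilobase of exon per 1000000 reads) that was set for testing. Tubb3 did not.

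Hepatocytes came from C57BL/6J mice, were isolated with collagenase and rested overnight. Both groups then received adenovirus at 1000000 viral particles per 1000000 cells, so the control cells were infected too. In the β-gal group (replicates 1, 2 and 3) the virus encoded β galactosidase, and in the Aloxe3 group (replicates 7, 8 and 9) it encoded Aloxe3, the epidermis-type lipoxygenase eLOX3. RNA was taken after 24 h. The labels do not say whether replicates were separate cultures or animals, so p-values measure only the spread between these libraries, which may be technical.

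Alpha and beta tubulin pair into the dimer from which microtubules are built. In hepatocytes microtubules carry secretory and endocytic vesicles, and newly made tubulin must pass through the CCT chaperonin and a set of folding cofactors before it can pair. Cells also adjust tubulin mRNA to the amount of free dimer: the factor TTC5 recognizes the first residues of a nascent tubulin chain on the ribosome and, with SCAPER and the CCR4-NOT deadenylase, brings about decay of the mRNA being translated. This mechanism is given as background, and no protein or free dimer was measured here.

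The sequence that TTC5 reads is shown because it is shared by every member and was not used to choose them. The first 30 coding bases of 9 members follow, 5′ to 3′ on the coding strand, from the GENCODE M21 transcripts on GRCm38, with the first 4 codons in capitals.
Tuba1a: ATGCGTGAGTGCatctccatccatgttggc
Tuba1b: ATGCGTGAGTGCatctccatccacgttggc
Tuba1c: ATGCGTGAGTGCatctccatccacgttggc
Tuba4a: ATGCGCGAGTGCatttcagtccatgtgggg
Tubb2a: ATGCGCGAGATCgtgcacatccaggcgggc
Tubb2b: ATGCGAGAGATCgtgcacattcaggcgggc
Tubb3: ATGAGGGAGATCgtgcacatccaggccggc
Tubb4b: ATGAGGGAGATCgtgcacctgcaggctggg
Tubb5: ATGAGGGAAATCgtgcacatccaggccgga
The 4 codons of every alpha member spelled methionine, arginine, glutamate and cysteine. Those of every beta member, Tubb6 included, spelled methionine, arginine, glutamate and isoleucine. The arginine codon was CGT in Tuba1a, Tuba1b and Tuba1c, CGC in Tuba4a and Tubb2a, CGA in Tubb2b and AGG in Tubb3, Tubb4b and Tubb5, so the shared residues were not one shared run of bases. Among 21503 coding genes examined, 16 began with one or the other of these residue sets. They were the 10 members and 6 further tubulin genes, namely Tuba3a, Tuba3b, Tuba8, Tubal3, Tubb1 and Tubb4a.

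Promoters were read for 8 members from RefSeq (GRCm38.p6), as 250 bases before to 50 after the annotated start. Tubb2b and Tubb6 had no entry. CCAAT, a motif bound by NF-Y, was found on either strand in 5 of the 8, against 37.4% of all 32851 promoters in the table. GGGCGG, a GC box, was found in 7 of the 8 against 35.7% of all, and TATAAA in 2 of the 8 against 13.6%. A match describes the letters only. Promoters of 2 beta genes are shown, Tubb4b with 5 CCAAT, the most of the 8 (chr2:25224653-25224952, minus strand) and Tubb5, the most abundant member, with 2 CCAAT (chr17:35838252-35838551, minus strand), each 5′ to 3′ on the gene's strand with the 3 motifs in capitals.
Tubb4b: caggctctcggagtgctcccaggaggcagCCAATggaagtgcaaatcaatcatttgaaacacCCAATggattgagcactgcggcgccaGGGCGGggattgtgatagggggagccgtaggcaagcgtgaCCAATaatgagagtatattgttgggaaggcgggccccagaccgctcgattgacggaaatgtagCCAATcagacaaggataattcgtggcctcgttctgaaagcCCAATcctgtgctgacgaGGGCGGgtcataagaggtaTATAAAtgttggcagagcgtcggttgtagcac
Tubb5: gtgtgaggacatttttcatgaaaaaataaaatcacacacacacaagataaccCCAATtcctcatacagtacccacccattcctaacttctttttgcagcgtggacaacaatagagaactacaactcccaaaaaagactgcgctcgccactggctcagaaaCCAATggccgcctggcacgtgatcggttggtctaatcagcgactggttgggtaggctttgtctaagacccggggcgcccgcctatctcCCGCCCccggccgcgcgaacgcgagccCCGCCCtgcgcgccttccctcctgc

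Reads used to scale the libraries numbered from 25521908 to 32431318, so that 1 read on 1 kb of exon was worth 0.0308 to 0.0392 RPKM. The virally supplied gene followed its label. Aloxe3 was at 1.95 ± 0.178 RPKM (mean ± SD, n = 3) in the β-gal group and 48.1 ± 7.32 RPKM (n = 3) in the Aloxe3 group, a log2 difference of 4.05 with a limma adjusted p of 4.74e-06. The labelled cell type was present by its markers, as 8 hepatocyte markers summed to 4780 to 4830 RPKM in β-gal libraries and 4630 to 4780 RPKM in Aloxe3 libraries. Alb and Apoa1 were the highest of the 8, and 7 of the 8 passed the minimum level for testing. One library stood apart in mitochondrial reads. They made up 3.7% of reads in Aloxe3 replicate 9 and 2.76 to 2.98% in the other 5. Of 12693 genes tested, 50 passed an adjusted p of 0.05 in limma, 45 higher and 5 lower in the Aloxe3 group. With 1 library left out, 6 to 19 genes passed.

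The genes lay on 7 chromosomes of GRCm38. Tuba1b (ENSMUSG00000023004, chr15:98931425-98934565, minus strand), Tuba1a (ENSMUSG00000072235, chr15:98949837-98953703, minus strand) and Tuba1c (ENSMUSG00000043091, chr15:99029891-99038110, plus strand) formed a cluster. Tubb2a (ENSMUSG00000058672, chr13:34074274-34078007) and Tubb2b (ENSMUSG00000045136, chr13:34126748-34130466) were neighbours on the minus strand. The others stood apart from these. They were Tuba4a (ENSMUSG00000026202, chr1:75214228-75219865, minus strand), Tubb3 (ENSMUSG00000062380, chr8:123411424-123422015, plus strand), Tubb4b (ENSMUSG00000036752, chr2:25222160-25224702, minus strand), Tubb5 (ENSMUSG00000001525, chr17:35833921-35838306, minus strand) and Tubb6 (ENSMUSG00000001473, chr18:67390717-67402749, plus strand). Values count reads over the exons of each gene.

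Tubulin mRNA was abundant in these cells and was lower, by mean RPKM, in the Aloxe3 group in 10 of 10 members. The 7 members whose groups did not overlap were Tuba1a, Tuba1c, Tuba4a, Tubb2a, Tubb2b, Tubb4b and Tubb6. Across all tested genes, groups separated in the lower direction in 8.71% and in the higher direction in 11.2%. No member separated in the higher direction, and Tuba1b, Tubb3 and Tubb5 overlapped. Because the members were picked on this contrast, nothing is read from these counts. In bulk RNA, fewer cells of a type and less RNA per cell cannot be told apart.

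**Figure D1:**
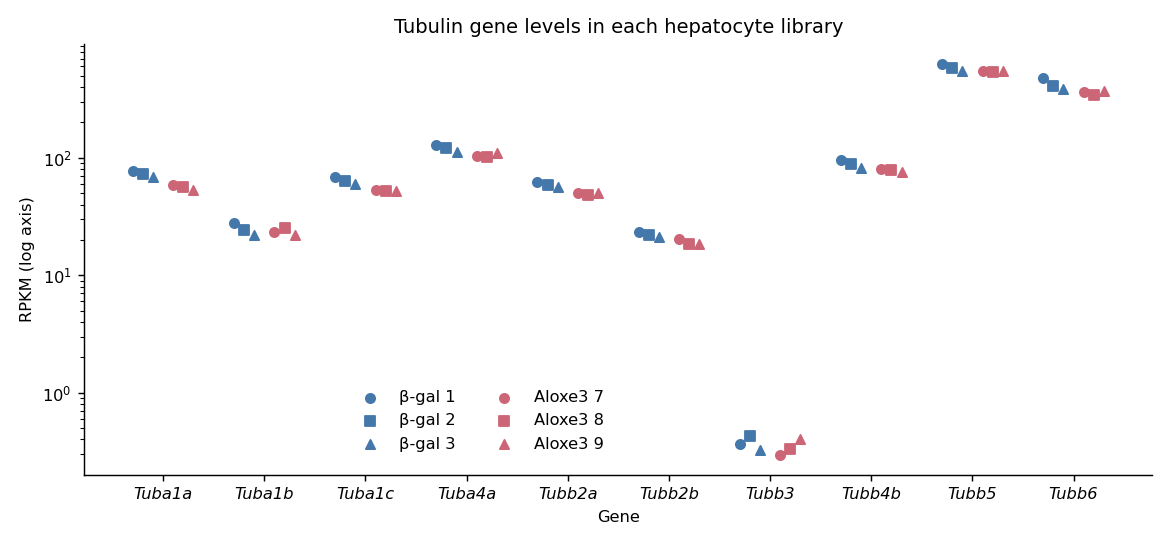
RPKM of each of the 10 tubulin genes in the 6 libraries (log axis), with one point a library, blue for β-gal and red for Aloxe3. Tubb5 and Tubb6 lie at 344 RPKM or more in every library, Tubb3 lies below 0.5 RPKM, and the points of the groups separate for 7 genes.

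By RPKM, beta tubulins were the larger family. Tubb5, the widely expressed beta isotype, measured 634, 583 and 545 RPKM in β-gal replicates 1, 2 and 3, and 545, 533 and 549.9 RPKM in Aloxe3 replicates 7, 8 and 9. The Aloxe3 libraries lay close together and overlapped the lowest β-gal library. Its means were 587 ± 45.0 and 543 ± 8.62 RPKM (n = 3 each), a log2 difference of -0.11 with a standard error of 0.058 on the log2(RPKM + 1) scale used for every log2 value here. Without β-gal replicate 1 that difference was -0.054.

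Tubb6, the class V beta isotype, was the second most abundant member. It measured 475, 412 and 388 RPKM in the β-gal libraries and 365, 344 and 367 RPKM in the Aloxe3 libraries. Every Aloxe3 library was below every β-gal library, with 21.2 RPKM between the nearest pair. Its means were 425 ± 44.6 and 359 ± 12.5 RPKM (n = 3 each), a log2 difference of -0.24 (standard error 0.073), or -0.16 without β-gal replicate 1.

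Tubb4b, a ubiquitous beta isotype, was at 95.9, 88.3 and 81.5 RPKM in the β-gal libraries and at 79.8, 78.6 and 76.3 RPKM in the Aloxe3 libraries. The gap between the groups was 1.73 RPKM, which is smaller than the SD of 7.19 RPKM among β-gal libraries. The log2 difference was -0.17 (standard error 0.058), or -0.12 without β-gal replicate 1.

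Tubb2a and Tubb2b encode the class II beta isotypes, best known from brain. Tubb2a was at 61.9, 58.3 and 56.0 RPKM in β-gal libraries and at 50.3, 47.9 and 49.7 RPKM in Aloxe3 libraries. Tubb2b was at 23.4, 22.2 and 21.2 RPKM, then at 20.2, 18.4 and 18.3 RPKM. Both separated, by 5.61 and 0.973 RPKM, with log2 differences of -0.25 (standard error 0.045) and -0.22 (standard error 0.053). Tubb3, the isotype used to mark neurons, was nearly absent, at 0.326 to 0.429 RPKM in β-gal libraries and 0.294 to 0.405 RPKM in Aloxe3 libraries, which corresponds to 14 to 26 derived reads a library.

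Among alpha tubulins, Tuba4a had the highest RPKM. It is the isotype whose gene does not encode the usual final tyrosine. Its level was 129, 121 and 113 RPKM in the β-gal libraries and 104, 101.5 and 109.8 RPKM in the Aloxe3 libraries. The groups were separated by 3.32 RPKM, less than either SD of 7.88 and 4.32 RPKM, and the log2 difference was -0.20 (standard error 0.055). The rank of Tuba4a among alpha tubulins is uncertain, because only uniquely aligned reads were counted. The share of read-length windows also found in another gene was 35.4% for Tuba4a and 75.5% for Tuba1a. Whether Tuba4a would stay above Tuba1a with shared reads counted was not tested.

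Tuba1a, the main alpha isotype of developing neurons, had the most negative log2 difference of the 10 members. It was at 77.4, 73.1 and 68.9 RPKM in the β-gal libraries and at 58.9, 56.9 and 52.8 RPKM in the Aloxe3 libraries. No library of one group came within 10.0 RPKM of the other group. The means were 73.1 ± 4.25 and 56.2 ± 3.11 RPKM (n = 3 each), a difference of -23.2%, or -0.37 on the log2 scale (standard error 0.056).

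Tuba1c measured 68.0, 63.0 and 59.9 RPKM in the β-gal libraries and 53.5, 52.2 and 51.7 RPKM in the Aloxe3 libraries. The groups did not overlap, and the log2 difference was -0.27 (standard error 0.049). Tuba1b, its closest relative by coding sequence, measured 27.6, 24.3 and 22.1 RPKM against 23.6, 25.5 and 22.0 RPKM. Here the ranges of the groups overlapped, the log2 difference was -0.053 (standard error 0.084), and it ran from -0.13 without β-gal replicate 3 to 0.028, a change of sign, without β-gal replicate 1.

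The order of levels in the β-gal group ran from Tubb5 through Tubb6, Tuba4a, Tubb4b, Tuba1a, Tuba1c, Tubb2a, Tuba1b and Tubb2b to Tubb3. The order held within each β-gal library. Across the 3 libraries the ranges of neighbours were apart except at 2 places, between Tuba1c and Tubb2a and between Tuba1b and Tubb2b, where they overlapped. The order compares RPKM, which is per length. It rests on uniquely aligned reads only, so the places of members with shared sequence, such as Tuba4a above Tuba1a, are uncertain.

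Limma called 0 of the 9 tested members at an adjusted p of 0.05, against 0.394% of all tested genes, and 3 members (Tuba1a, Tuba1c and Tubb2a) passed when derived reads were fitted with voom instead, against 1.36% of all genes in that fit. At an unadjusted p under 0.05, 7 members were lower, against 5.42% of tested genes in that direction, and 0 were higher, against 7.31%. These shares are printed for scale only, since the same contrast chose the genes. The median log2 difference was -0.21 over the 10 members and 0.0049 over all tested genes, of which 47.6% were below 0. Leaving out each library in turn left 7 or 8 members with separated lower values, against 11.4 to 15.5% of tested genes, as groups separate more readily with fewer libraries.

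**Figure D2:**
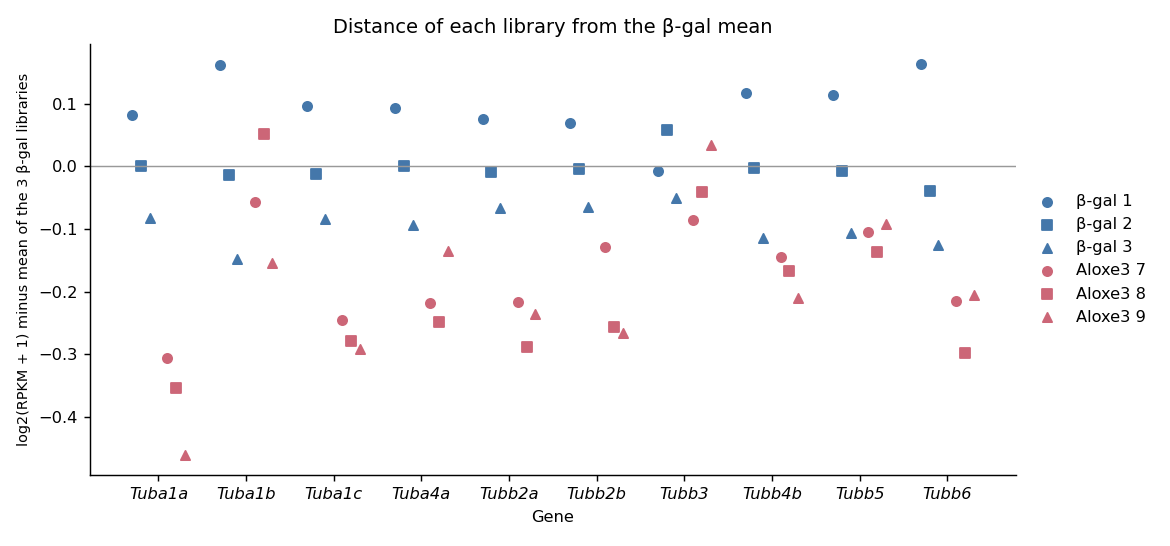
Deviation of each tubulin gene in each library from its own β-gal mean, in log2(RPKM + 1) units, with one marker a library. Most Aloxe3 markers lie below 0, and the β-gal markers spread on both sides, with replicate 1 uppermost in 9 of 10 genes.

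The members also varied together within the control group. The median deviation of the 10 members from their β-gal means came to 0.095, -0.0062 and -0.088 in replicates 1, 2 and 3. In the Aloxe3 group it was -0.18, -0.25 and -0.21 in replicates 7, 8 and 9. The same median over all tested genes stayed between -0.012 and 0.015 in the 6 libraries. β-gal replicate 1 was the highest control library for 9 of the 10 members, and for 32.2% of all tested genes. β-gal replicate 3 was the lowest control library for 10 of the 10 members, and for 30.4% of all tested genes. The order 1 over 2 over 3 held in 9 of the 10 members and in 17.4% of all tested genes. That order was not particular to tubulins. The chaperonin genes Cct5 (215.7, 207.3 and 198.4 RPKM) and Cct7 (174.1, 170.2 and 162 RPKM) followed it. The prefoldin genes Pfdn5 (40.6, 43.07 and 42.01 RPKM) and Pfdn6 (26.97, 30.58 and 29.62 RPKM) did not. Of the Aloxe3 libraries, replicates 7, 8 and 9 were lowest in 1, 4 and 5 members, and in 26.4, 26.9 and 46.8% of all tested genes.

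Summed over the 4 genes, alpha tubulin was at 302, 281 and 264 RPKM in the β-gal libraries and at 239.5, 236 and 236 RPKM in the Aloxe3 libraries, with means of 282 ± 18.9 and 237 ± 1.90 RPKM (n = 3 each). Summed over the 6 genes, beta tubulin was at 1290, 1164 and 1092 RPKM and then at 1060, 1023 and 1062 RPKM, with means of 1182 ± 100.4 and 1048 ± 22.1 RPKM. The sums of the groups were apart in both families. The difference between group means was -16.0% for alpha tubulin and -11.3% for beta tubulin, and -7.08% for beta tubulin without β-gal replicate 1. The ratio of beta to alpha RPKM was 4.28, 4.14 and 4.14 in the β-gal libraries and 4.43, 4.33 and 4.49 in the Aloxe3 libraries, a separation that was not tested. The level of this ratio is uncertain, because only uniquely aligned reads were counted. The share of 50-base windows also found in another gene was 75.5% for Tuba1a, 75.1% for Tuba1b, 52.7% for Tuba1c and 35.4% for Tuba4a. Among beta genes it was 0.0892% for Tubb5, 0% for Tubb6, 36.9% for Tubb2b, 41.3% for Tubb4b and 49.6% for Tubb2a.

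**Figure D3:**
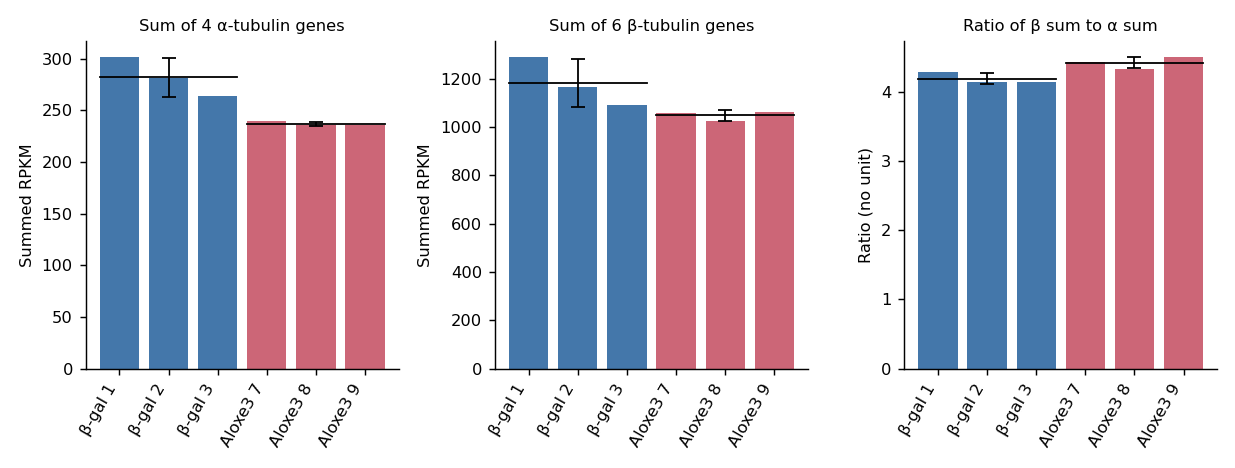
Summed RPKM of the alpha and of the beta tubulin genes in each of the 6 libraries, and the ratio of the sums, as bars from 0 with lines at the group means and error bars of 1 SD. The Aloxe3 libraries lie close together in both families, at 236 to 239.5 RPKM for alpha tubulin and 1023 to 1062 RPKM for beta tubulin.

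The largest difference in family share between group means was -2.24 percentage points, for Tuba1a. Tuba1a made up 25.9% ± 0.239 of alpha tubulin RPKM in the β-gal group and 23.7% ± 1.18 in the Aloxe3 group, whereas Tuba1b made up 8.72% ± 0.394 and 9.98% ± 0.761. Tubb5 made up 49.7% ± 0.486 and 51.8% ± 0.373 of beta tubulin RPKM, and Tubb6 35.9% ± 0.756 and 34.2% ± 0.482. These SDs are over 3 libraries in each group. The shares rest on uniquely aligned reads only, so the sizes of shares of similar genes are uncertain.

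The members resemble one another in sequence, which bears on how reads were assigned. Coding identity was 97.6% between Tuba1a and Tuba1c, 98.3% between Tuba1a and Tuba1b, 98.4% between Tuba1b and Tuba1c and 96.5% between Tubb2a and Tubb2b. Alpha and beta members were 55.2 to 57.9% identical. Only uniquely aligned reads were counted, so a read that fits several genes was left out. Of all 50-base windows in the transcripts of a gene, the share also found in another gene was 75.5% for Tuba1a, 75.1% for Tuba1b, 52.7% for Tuba1c, 49.6% for Tubb2a, 41.3% for Tubb4b, 36.9% for Tubb2b and 35.4% for Tuba4a. It was 0% for Tubb3 and Tubb6 and 0.0892% for Tubb5.

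Levels of the similar genes are thus uncertain, as RPKM divides by the whole exon length. Tubb6 had no shared window and separated between groups, whereas Tubb5 had 3 shared windows and did not separate. Most shared windows of Tuba4a, 1330 of 1361, came from the overlapping gene Stk16. The part of shared reads in any difference was not tested.

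**Figure D4:**
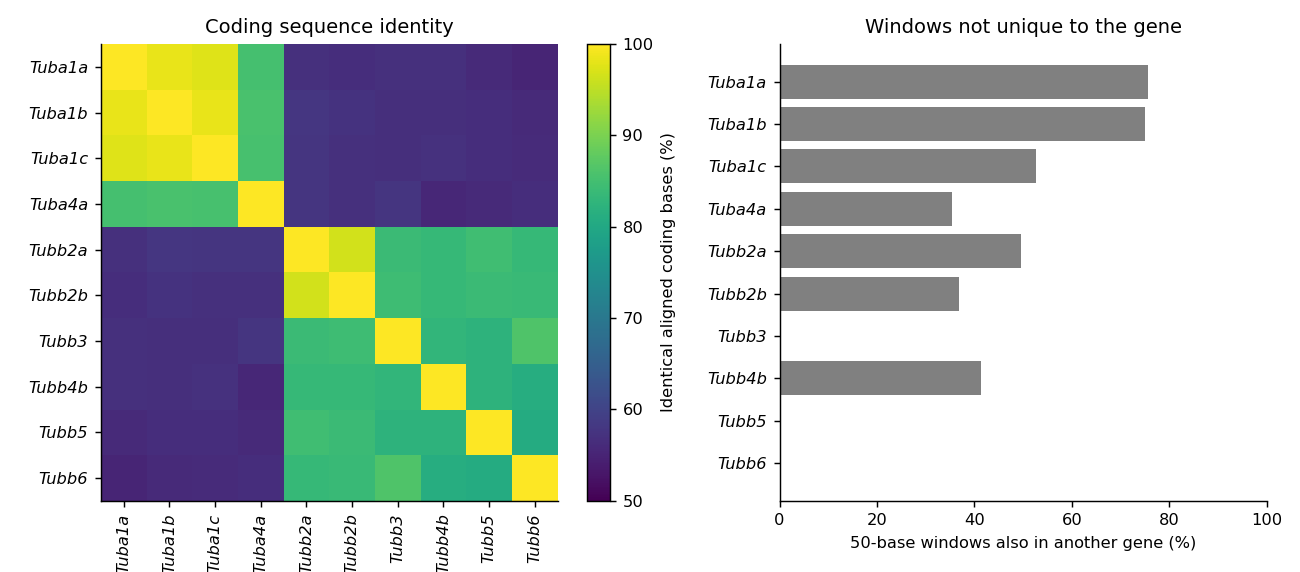
Coding identity between the members (percent) and the percentage of 50-base windows of each member that also occur in another gene's transcripts. The left panel is a colour map and the right panel has bars from 0. The Tuba1 genes and the Tubb2 pair are the most alike, and Tubb3, Tubb5 and Tubb6 carry almost no shared windows.

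The remaining tubulin genes were few and weakly expressed apart from Tubg1, the gamma tubulin that nucleates microtubules. Of 10 further tubulin genes 5 passed the minimum level. Limma and voom called 0 of them. At an unadjusted p under 0.05, 1 (Tuba8) was higher and 0 lower, against 7.31% higher and 5.42% lower of all tested genes. The median log2 difference of these 5 was 0.13. Over the genes that each alternative setting with all libraries tested, it ran from 0.039 to 0.22. Tuba8 was at 0.733 ± 0.0481 and 0.972 ± 0.168 RPKM, and Tubg1 at 22.4 ± 1.17 and 23.1 ± 0.507 RPKM (n = 3 each). Tubd1 (delta) was at 1.19 ± 0.107 and 1.403 ± 0.212 RPKM, Tube1 (epsilon) at 0.912 ± 0.0899 and 0.973 ± 0.163 RPKM, and Tubg2 at 0.990 ± 0.109 and 1.17 ± 0.124 RPKM. Tubb4a was at 0.129 ± 0.0283 and 0.189 ± 0.0504 RPKM, below the minimum. Tubal3 was at 0.0122 RPKM or less in every library, Tubb1 had at most 1 derived read in a library, and Tuba3a and Tuba3b were listed at 0. The 6 other genes with the residue signal were thus all under 1.2 RPKM.

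Of the genes that act on tubulin mRNA and protein, limma and voom called 0. In the autoregulation list of 12, which holds Ttc5, Scaper and CCR4-NOT subunits, 8 genes were above and 4 below 0, with a median of 0.025 (0.058 without Aloxe3 replicate 7 and 0.013 without Aloxe3 replicate 8), and 0 had an unadjusted p under 0.05. The 3 with the smallest p were the CCR4-NOT subunits Cnot1, Cnot6l and Cnot9, with log2 differences of 0.053, 0.11 and 0.076. Ttc5 was at 11.6 ± 0.658 and 10.8 ± 1.32 RPKM, and Scaper at 1.81 ± 0.101 and 1.80 ± 0.106 RPKM. Of the 16 CCT chaperonin and prefoldin genes, 13 were below 0, the median was -0.064 (-0.033 without Aloxe3 replicate 9), and 0 were higher and 2 lower at an unadjusted p under 0.05, against 7.31% higher and 5.42% lower of all tested genes. Cct7 was at 169 ± 6.19 and 156 ± 11.1 RPKM, and Pdcl, a regulator of the chaperonin, at 9.40 ± 0.267 and 8.20 ± 0.566 RPKM. Pfdn2, a prefoldin subunit, was at 54.8 ± 1.73 and 51.4 ± 0.503 RPKM. The limma adjusted p was 0.45 for Cct7, 0.27 for Pdcl and 0.36 for Pfdn2.

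Of the 7 tubulin folding cofactors 5 were below 0, with a median of -0.034 that changed sign to 0.037 without Aloxe3 replicate 9. At an unadjusted p under 0.05, 1 cofactor was higher and 1 lower, against 7.31% higher and 5.42% lower of all tested genes. Arl2, the small GTPase of the cofactor complex, was at 4.61 ± 0.128 and 4.11 ± 0.0211 RPKM, and Tbca, which binds beta tubulin, at 32.3 ± 3.17 and 36.9 ± 1.70 RPKM. Tbcd, another subunit of that complex, was at 17.4 ± 0.253 and 15.9 ± 1.30 RPKM. Among 17 tested tubulin modifying enzymes 10 were above 0 and 7 below, and 0 were higher and 3 lower at an unadjusted p under 0.05, with the same shares of all tested genes. Ttl, which puts the final tyrosine back on alpha tubulin, was at 5.19 ± 0.134 and 4.69 ± 0.110 RPKM, and Svbp, partner of the enzymes that remove it, at 13.4 ± 0.455 and 12.0 ± 0.246 RPKM. Ttll1, a polyglutamylase subunit, was at 13.8 ± 0.1503 and 12.8 ± 0.475 RPKM. Limma adjusted p-values were 0.28 for Arl2, 0.34 for Tbca, 0.42 for Tbcd, 0.31 for Ttl, 0.24 for Svbp and 0.34 for Ttll1.

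Limma and voom also called 0 of the genes whose proteins bind or use microtubules. The 25 tested microtubule-binding genes were 13 above and 12 below 0, and the 28 tested motor genes 9 above and 19 below, with medians of 0.013 and -0.036. The first was -0.018 and the second -0.018 without Aloxe3 replicate 9, and the second was -0.017 without β-gal replicate 2. At an unadjusted p under 0.05 the first list held 1 higher and 2 lower and the second 0 higher and 2 lower, against 7.31% higher and 5.42% lower of all tested genes. Of the 9 gamma-tubulin ring complex genes 6 were above 0, with a median of 0.011 that ran from -0.0052 without Aloxe3 replicate 7 to 0.029 without β-gal replicate 3, and 1 was higher and 0 lower at an unadjusted p under 0.05. Tubgcp2, one of its subunits, was at 12.3 ± 0.497 and 14.4 ± 0.589 RPKM with a limma adjusted p of 0.16. Stmn1, which sequesters tubulin dimers, was at 1.42 ± 0.157 and 1.93 ± 0.216 RPKM with a limma adjusted p of 0.25. Katna1, the catalytic subunit of a microtubule-severing enzyme, had a log2 difference of -0.11, and the dynactin and dynein genes Dctn2, Dctn3 and Dynll1 had -0.079, -0.11 and -0.10. Mzt1 and Tubgcp3 of the ring complex had 0.093 and 0.067.

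Actin, keratin, vimentin and mitosis genes had 0 limma calls, and voom called 3 in each of these lists, against 1.36% of all genes. Of 14 actin, keratin and vimentin list genes 13 were below 0, with a median of -0.091, and 5 were lower and 0 higher at an unadjusted p under 0.05, against 5.42% lower and 7.31% higher of all tested genes. The 3 with the smallest p are no filament proteins. Tmsb4x, which binds actin monomers, was at 41.1 ± 2.99 and 30.3 ± 4.49 RPKM with a limma adjusted p of 0.17, and the calcium-binding partners Anxa2 and S100a6 were at 336 ± 12.1 and 287 ± 22.2 RPKM and at 374 ± 14.8 and 304 ± 39.6 RPKM. Of 15 tested mitosis genes all 15 were above 0, with a median of 0.17 and 8 higher and 0 lower at an unadjusted p under 0.05 (the same background), in the direction opposite to the tubulins. That median ran from 0.12 to 0.30 under the alternative settings with all libraries. Mki67, a proliferation marker, was at 2.56 ± 0.167 and 3.92 ± 0.539 RPKM with a limma adjusted p of 0.097. Top2a, a topoisomerase, and Tpx2, a spindle assembly factor, had log2 differences of 0.26 and 0.25.

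**Figure D5:**
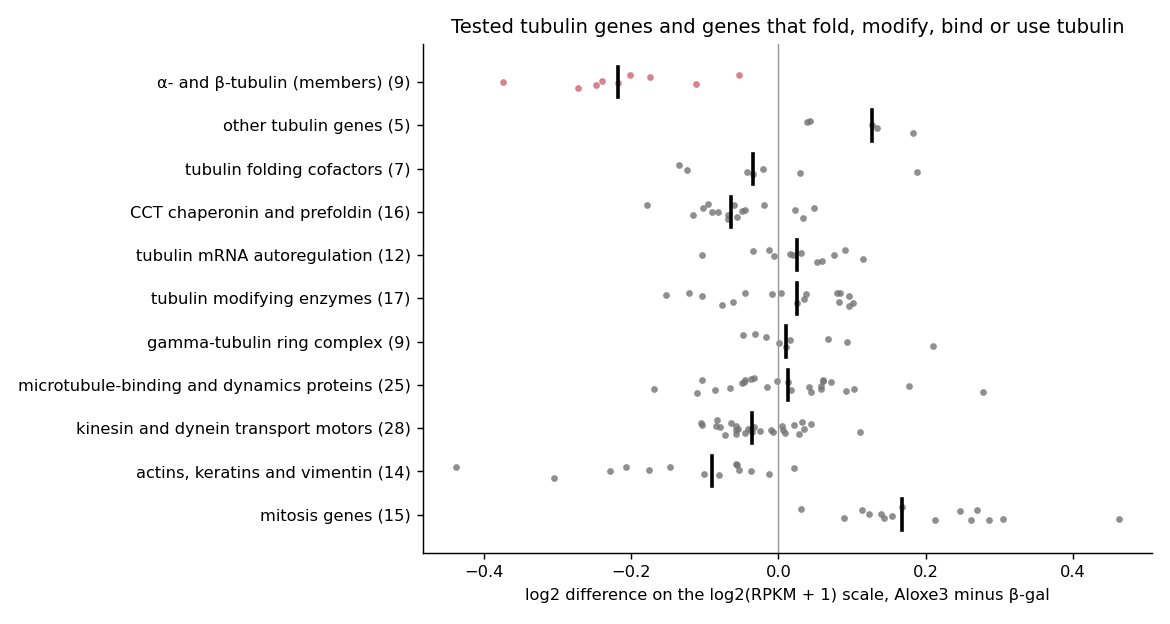
Log2 difference (Aloxe3 minus β-gal, log2(RPKM + 1)) of every tested gene in the tubulin members and in the 10 other gene lists, as points, with black bars at the list medians. The members centre at -0.22 over the 9 tested and the mitosis list at 0.17. The median of all tested genes, 0.0049, is not drawn.

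Marker sums were also taken for other liver cells. Kupffer cell markers, 8 of 8 above 0, summed to 152 to 157 RPKM in β-gal libraries and 134 to 148 RPKM in Aloxe3 libraries, so the sums did not overlap. Endothelial markers summed to 32.0 to 36.2 and 31.5 to 36.6 RPKM, and stellate cell and fibroblast markers, with Lrat at 0, to 3.57 to 4.11 and 3.69 to 4.09 RPKM. Cholangiocyte markers, chiefly Spp1, summed to 1510 to 1590 and 1580 to 1720 RPKM. Lymphocyte markers, with Ms4a1 and Nkg7 at 0, summed to 0.0425 to 0.0603 RPKM in β-gal and 0.0807 to 0.131 RPKM in Aloxe3 libraries. These sums did not overlap and were higher with Aloxe3. They lie near 0, as 0 of the 6 markers passed the minimum level for testing, so nothing is read from their separation. The part of Kupffer cell or lymphocyte RNA or of the mitochondrial share in the tubulin differences was not tested.

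The 5 genes whose deviations over the 6 libraries lay nearest the median tubulin profile, among 7357 genes averaging 5 RPKM or more, were Pus1, Chchd4, Ppif, Rnf19b and Srf. Their Euclidean distances ran from 0.062 for Pus1 to 0.091 for Srf. The members themselves ran from 0.064 for Tubb2a to 0.28 for Tubb3. Of the 7357 genes, 854 lay closer than Tuba1a, 2033 closer than Tuba1b and 2356 closer than Tubb3. For the remaining members that number ran from 1 for Tubb2a to 42 for Tubb5. Pus1, which makes pseudouridine in RNA, was at 42.6 ± 2.00 and 37.1 ± 1.17 RPKM (n = 3 each).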

How the data were processed

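RNA-seq was performed on 6 libraries of primary murine hepatocytes, 3 given β-gal and 3 given Aloxe3 adenovirus, with poly-A selection and single reads of 50 bases in one run. The authors aligned reads with STAR 2.0.4b to GRCm38.p2, used featureCounts 1.4.5 to count, for each gene, reads with 1 alignment and 1 gene, and deposited RPKM values. The step from counts to RPKM is not given in the sources used here. Groups were taken from the labels.

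Ensembl identifiers were matched to GENCODE M21 symbols (40340 matched, 1048 did not). Values were tested as log2(RPKM + 1), with a pseudocount of 1, in the 12693 genes averaging 0.5 RPKM or more. The tool was limma 3.58.1 under R 4.3.3, with a trended eBayes prior, and p-values were adjusted by Benjamini-Hochberg over all of them, with a threshold of 0.05. The fold changes of low genes are understated on this scale. Whole reads were derived from the steps of the RPKM values (tolerance 0.02 read), and they sum to 99.9% of each library. For 8440 genes the annotated length was missing or gave no whole reads. The smallest length that did was used there, so their reads may be too low. The derived reads served for read numbers and for an alternative fit with voom. Pairs of replicates differed beyond sampling noise, so each library counted as 1 sample.

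The tubulin genes, the pathway lists and the markers were chosen with earlier results of these data known. All 10 members are named. From each list, genes past the threshold and the 3 with the smallest unadjusted p are named, and of the other tubulin genes all. The 5 genes nearest to the median profile are named too, with Ttc5 and Scaper added after their values were seen. Sequences were read from GENCODE M21 and RefSeq tables with Python 3.11.15. The coding start of Tubb6 and 1 gene of the microtubule-binding list are not reported here. The test was tried on simulated data.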

Additional observations from a re-analysis of the deposited data

How the results depend on the processing

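Of 118 values of single members under 13 alternatives, 117 were negative. The exception was Tuba1b at 0.028 without β-gal replicate 1. The median of the 10 members ran from -0.25 to -0.16 with each library left out and from -0.22 to -0.21 under the other alternatives that measured all 10. Over the 9 members tested it ran from -0.23 with voom to -0.19 with quantile normalization. Limma called 1 member (Tuba1a) with the filter at 5 RPKM (47 of 7366 genes called) and with rescaling by library medians (41 of 12693), and voom called 3 (173 of 12692). Genes past the threshold numbered 50, but 7 with no filter on low values, 173 with voom and 6 to 19 with a library left out.

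The cause was not tested for the following moves. The median of the other tubulin genes was 0.22 with a pseudocount of 0.1, 0.058 with no filter, 0.039 with the filter at 5 RPKM and 0.22 with voom. That of mitosis genes was 0.29 with the smaller pseudocount and 0.30 with voom. Voom called 3 mitosis genes and 3 of the actin, keratin and vimentin list, and limma with a library left out called 0 to 1 mitosis genes. The median of modifying enzymes was 0.0035 with no filter, and it reversed to -0.061 with the filter at 5 RPKM and to -0.0071 with quantile normalization. With a library left out, medians ran from 0.013 to 0.058 for autoregulation, from -0.050 to 0.037 for cofactors and from -0.018 to 0.027 for microtubule-binding genes. The ring complex median changed sign to -0.0015 with median rescaling, -0.0046 with quantile normalization and -0.0052 without Aloxe3 replicate 7 (0.029 without β-gal replicate 3), and that of microtubule-binding genes to -0.00086 with median rescaling and -0.0020 without β-gal replicate 1. The cofactors reversed to 0.037 and the microtubule-binding genes to -0.018 without Aloxe3 replicate 9. Leaving libraries out was also applied, after the data were seen, to the members with separated lower values (7 to 8, against 11.4 to 15.5% of tested genes).

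No paired analysis was possible because the groups share no replicate number. Reads shared by similar tubulin genes limit the levels of Tuba1a, Tuba1b and Tuba1c.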
